A study of Mus musculus with 6 samples.

Results

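The 90 genes described here are the nuclear genes of mitochondrial oxidative phosphorylation, among 22180 genes measured in the mouse myoblast line C2C12. They were chosen by symbol and not by any measured value: probe sets with a single symbol that begins with Nduf, Uqcr, Cox4i, Cox5, Cox6, Cox7, Cox8 or Atp5, or that is Sdha, Sdhb, Sdhc, Sdhd or Cyc1. The rule matched 99 probe sets, and the brightest probe set over the 6 arrays stood for each of the 9 genes that had several. Of the 90 genes, 80 code for subunits (32 of complex I, 4 of complex II, 8 of complex III, 19 of complex IV and 17 of complex V), 8 for complex I assembly factors, and 2 are pseudogenes (Uqcrh-ps1 and Atp5c1-ps). Ndufa4 and Ndufa4l2 were counted with complex IV in spite of their symbols, because the Ndufa4 protein is known as a subunit of cytochrome c oxidase. A further 10 probe sets carried several symbols, at least 1 of them with such a beginning, and were left out. Through this Ndufs6, Ndufb4, Ndufb2, Uqcr10 and Cox6c have no value here, and the subunits encoded in mitochondrial DNA were not analysed here.

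By its title the study concerns huntingtin and the differentiation of cultured muscle cells. C2C12 is an established line of muscle precursor cells that stop dividing and fuse into myotubes when serum is reduced. In 1 group of 3 arrays the cells had been transfected with an siRNA pool targeting mouse huntingtin (Htt), and in the other group of 3 with scramble siRNA. Both groups were otherwise the same line in the same standard medium as far as the labels go, and neither the interval from transfection to harvest nor the culture stage is stated there. The labels of the treated group say knockout, while the treatment protocol speaks of siRNA pools, and the group is called Htt siRNA here. The labels do not say that replicates came from separate cultures, so the spread of these 3 arrays a group may be technical. Each limma p-value reflects that spread, drawn towards the spread of genes in general.

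Values are deposited log2 RMA values of bulk RNA from Affymetrix arrays, and a difference of 1 is a doubling. A log2 fold change is the Htt siRNA mean minus the scramble mean, given with the moderated standard error from limma, and adjusted p-values are Benjamini-Hochberg values over all 22180 genes with a threshold of 0.05. Probes differ in how strongly they respond, so the value of one gene is not ranked against that of another. In bulk RNA, fewer cells of a kind and less RNA per cell cannot be told apart. The targeted gene was lower in every Htt siRNA array: Htt stood at 4.49, 4.47 and 4.65 with Htt siRNA and at 5.59, 5.60 and 5.72 with scramble. Its log2 fold change was -1.10 ± 0.09 (limma adjusted p = 0.0559, exact permutation p = 0.1, the smallest possible for 3 against 3). The 6 myoblast markers checked (Myod1, Myf5, Des, Ncam1, Cdh15 and Itga7) all lay above the median gene, which stood at 2.95, while 0 of 4 endothelial and 0 of 4 adipocyte markers did. Of other cell types, 2 of 4 macrophage, 2 of 4 epithelial and 3 of 5 neuronal markers lay above it, Tubb3 and Map2 among the latter.

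Oxidative phosphorylation passes electrons from NADH and succinate along the inner mitochondrial membrane to oxygen and uses the proton gradient so built to make ATP. Complex I (NADH dehydrogenase) and complex II (succinate dehydrogenase) feed electrons to ubiquinone, complex III hands them to cytochrome c, complex IV (cytochrome c oxidase) reduces oxygen, and complex V is the ATP synthase. Most subunits are encoded in the nucleus, and the factors NRF1, GABP (of the ETS family, also called NRF2) and YY1 are known regulators of such genes; muscle builds up the system as it differentiates and uses muscle forms of some complex IV subunits.

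Promoter sequence is a feature that the choice by symbol did not use. RefSeq promoters (GRCm38.p6, 250 bases before to 50 bases after the start, 300 in all) matched 72 of the 88 coding genes by Entrez identifier, and 16 had none in the table. They were searched on both strands, letter for letter, for an NRF1 core (GCGC, any pair of bases, GCGC), an ETS core (CCGGAAG) and a YY1 core (AAGATGGC), and a base could count in more than 1 motif. The NRF1 core was found in 19 of the 72 genes (26.4%), against 7.0% of the 27025 genes in the table and 15.4% of the 8756 measured genes above the median level. The ETS core was also found in 19 (26.4%, against 9.93% and 20.4%) and the YY1 core in 10 (13.9%, against 3.19% and 5.45%). The YY1 match of Atp5j lay wholly before the start and that of Atp5pb across it, while the others lay after it. At least 1 of the 3 motifs was present in 42 genes (58.3%, against 17.9% and 35.7%). By complex this was 17 of 29 genes for complex I, 4 of 7 for its assembly factors, 3 of 3 for complex II, 3 of 4 for complex III, 3 of 14 for complex IV and 12 of 15 for complex V. The share for complex IV (21.4%) was below the 35.7% of measured genes above the median level. So were the NRF1 core in complex IV (7.14%, against 15.4%) and the ETS core in complex I (13.8%, against 20.4%). A match is a description of the letters and not a binding site, and the shares were not tested.

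**Figure D1:**
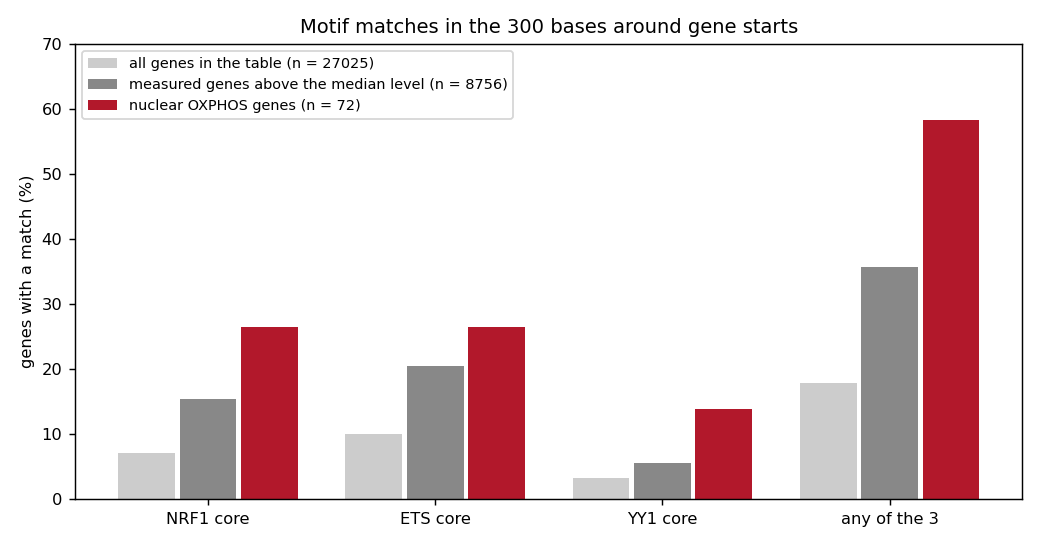
Share of genes (percent, vertical axis) whose 300-base RefSeq promoter holds each motif, for all genes in the table (light grey), measured genes above the median level (dark grey) and nuclear oxidative phosphorylation genes (red). The red bars stand at 26.4%, 26.4%, 13.9% and 58.3%, above both grey bars in each of the 4 groups.

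6 stretches of 150 bases ending at the base before the start, 5′ to 3′ on the gene's strand, are shown because they span the range from 3 matches to none and belong to genes described here; capitals mark NRF1 and ETS cores on either strand (CTTCCGG is the ETS core read from the opposite strand). Sdha, the flavoprotein of complex II (chr13:74350241-74350390, minus strand), holds 3 NRF1 cores, and Sdhd, a membrane anchor of the same complex (chr9:50603850-50603999, minus strand), holds an NRF1 and an ETS core. Cox6a1, the widely expressed form of complex IV subunit 6a (chr5:115348959-115349108, minus strand), holds an NRF1 core and an ETS core, and Atp5k, subunit e of the ATP synthase (chr5:108434400-108434549, minus strand), holds an NRF1 core. Ndufab1 (chr7:122101849-122101998, minus strand) and Ndufb11 (chrX:20617620-20617769, minus strand) are the complex I genes with the smallest p; the stretch of the former holds an NRF1 core and that of the latter none of the motifs.
Sdha: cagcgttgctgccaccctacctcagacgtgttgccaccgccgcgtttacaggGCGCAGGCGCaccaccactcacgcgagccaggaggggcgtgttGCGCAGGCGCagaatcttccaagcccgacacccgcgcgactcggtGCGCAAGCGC
Sdhd: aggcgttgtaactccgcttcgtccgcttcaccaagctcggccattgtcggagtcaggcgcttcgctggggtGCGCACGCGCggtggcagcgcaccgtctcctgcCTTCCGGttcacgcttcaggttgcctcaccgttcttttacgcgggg
Cox6a1: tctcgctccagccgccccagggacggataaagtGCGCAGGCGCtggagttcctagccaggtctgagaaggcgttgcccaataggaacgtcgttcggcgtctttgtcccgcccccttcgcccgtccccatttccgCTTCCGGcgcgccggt
Atp5k: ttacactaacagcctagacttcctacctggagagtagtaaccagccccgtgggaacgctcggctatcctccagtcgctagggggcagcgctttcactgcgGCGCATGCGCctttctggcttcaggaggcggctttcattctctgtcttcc
Ndufab1: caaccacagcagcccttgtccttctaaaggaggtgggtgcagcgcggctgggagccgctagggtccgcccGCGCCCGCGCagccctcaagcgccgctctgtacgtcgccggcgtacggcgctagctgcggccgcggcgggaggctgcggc
Ndufb11: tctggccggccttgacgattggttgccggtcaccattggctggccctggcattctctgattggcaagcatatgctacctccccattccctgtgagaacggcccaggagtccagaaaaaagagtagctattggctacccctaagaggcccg

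None of the 90 genes passed the threshold after Htt siRNA. Limma called 0 of 90 at an adjusted p under 0.05, and 0 of all 22180 genes (0.0%). The smallest adjusted p among the 90 was 0.264, for Ndufb11. At an unadjusted p under 0.05, 2 of the 90 had lower values with Htt siRNA (Ndufb11 and Ndufab1; 2.22%) and 2 had higher values (Ndufaf2 and Uqcrh-ps1; 2.22%). Over all genes these shares were 5.14% lower, 5.72% higher and 10.9% in either direction, so the 4.44% of the 90 genes was below the background.

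The groups did not overlap for 10 of the 90 genes. All 3 Htt siRNA arrays lay above all 3 scramble arrays for 7 (7.78%, against 10.1% of all genes): Ndufa13, Ndufa1, Ndufs7, Ndufaf8, Cox7a2l, Atp5l and Uqcrh-ps1. They lay below for 3 (3.33%, against 5.91%): Ndufb11, Ndufab1 and Cox5a. A log2 fold change below 0 was found for 38 of the 90 genes (42.2%, against 41.8% of all genes), and the median was 0.03, as it was over all genes.

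Many genes on the array are dim, so the 79 of the 90 that lay above the median gene were also set against the 11090 genes above it. Here the log2 fold change was below 0 for 36 of 79 (45.6%, against 52.5%), with an unadjusted p under 0.05 for 2 lower (2.53%, against 9.22%) and 1 higher (1.27%, against 5.92%). The groups stood apart with Htt siRNA lower for 3 (3.8%, against 9.04%) and higher for 6 (7.59%, against 7.13%). The 11 genes at or below the median gene were Ndufs5, Cox4i2, Cox6b2, Cox7b2, Cox8b, Cox8c, Ndufa4l2, Atp5g1, Atp5j2 and both pseudogenes, and a difference in such a dim probe set is compressed.

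The differences were also small in size. A log2 fold change of over 0.2 in either direction was found for 9 of the 90 genes (10.0%, against 22.9% of all genes) and for 8 of the 79 brighter ones (10.1%, against 32.3% of genes above the median level). The 95% confidence interval of the fold change lay wholly between -0.5 and 0.5 for 68 of these 79 (86.1%, against 62.9%) and wholly between -1 and 1 for 78 (98.7%, against 93.2%). The exception at the wider limit was Cox6a2, the muscle form of complex IV subunit 6a. These limits of size were picked as descriptions after the values were seen and are no test.

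**Figure D2:**
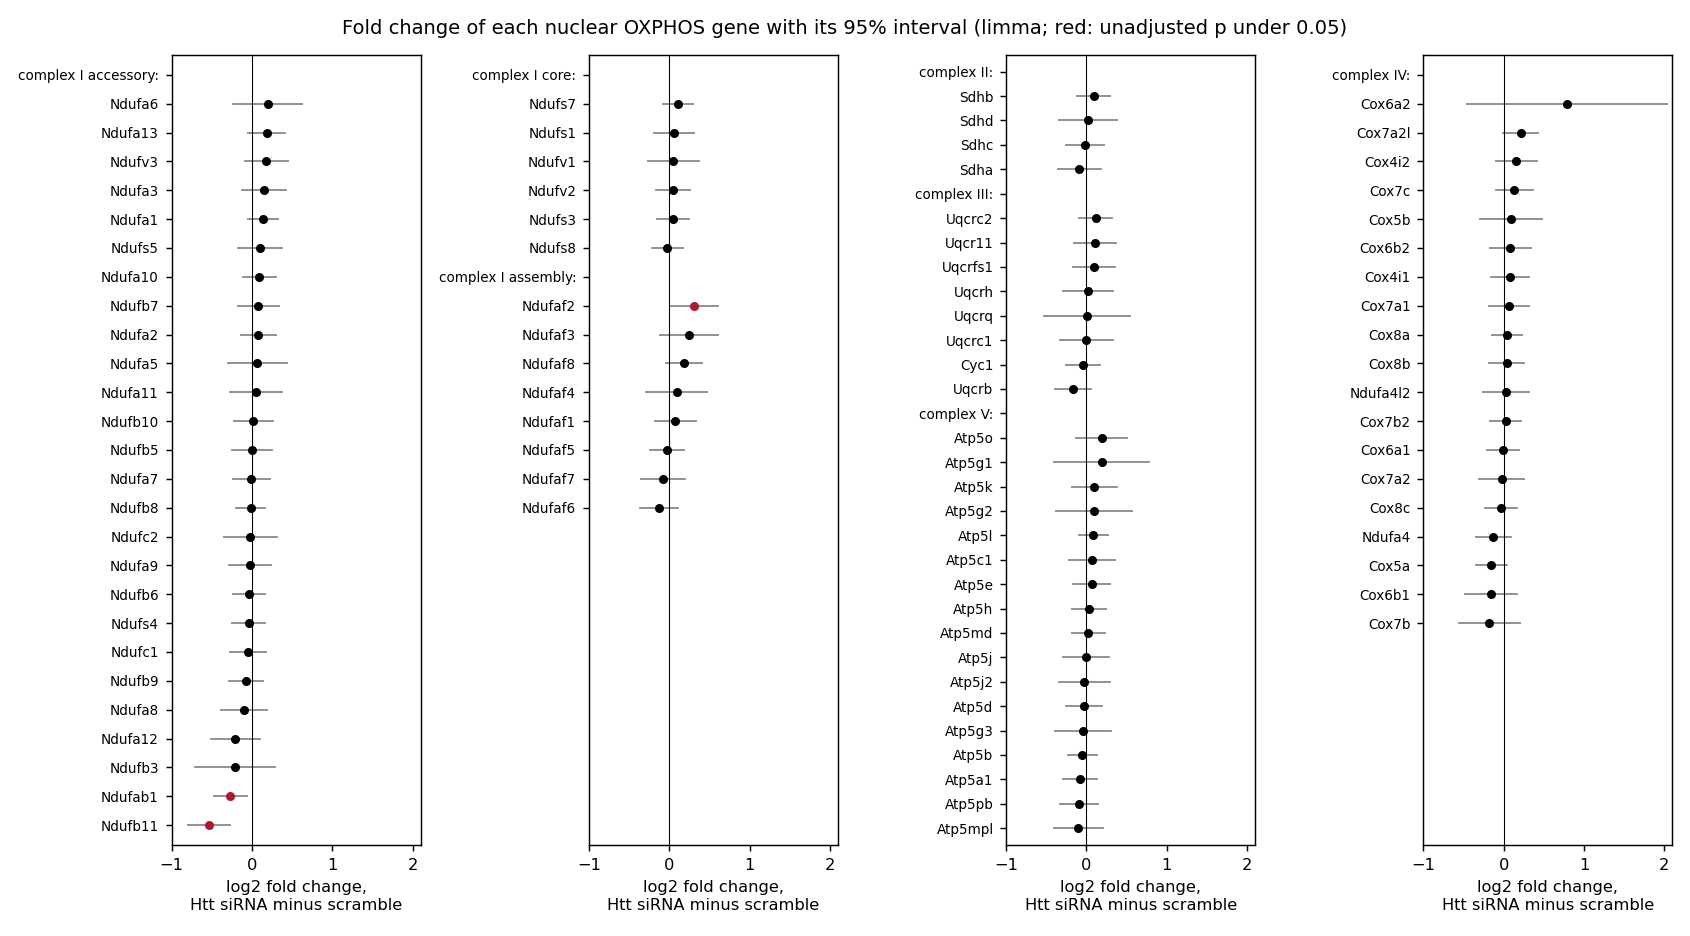
Log2 fold change (horizontal axis, Htt siRNA minus scramble) of each of the 88 coding genes with its 95% confidence interval from limma, by complex; red points have an unadjusted p under 0.05. The points cluster around 0, Ndufb11 is the lowest at -0.53, and Cox6a2 is the highest at 0.79 with the widest interval.

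The mean log2 value of each complex differed little between the groups. Complex I averaged 6.32, 6.37 and 6.39 in the Htt siRNA arrays and 6.36, 6.30 and 6.42 in the scramble arrays, a difference of 0.0015. Complex II averaged 7.57, 7.74 and 7.66 against 7.55, 7.65 and 7.76, and complex III 6.73, 6.72 and 6.80 against 6.69, 6.67 and 6.84. In both the groups overlapped, with differences of 0.0019 and 0.0149. Complex IV averaged 5.28, 5.23 and 5.29 against 5.25, 5.16 and 5.23, a difference of 0.05. Complex V averaged 6.90, 6.96 and 6.98 against 6.85, 6.91 and 7.02, a difference of 0.02. The 8 complex I assembly factors averaged 4.79, 4.67 and 4.70 against 4.66, 4.60 and 4.63, a difference of 0.09, and theirs were the means, among these 6 lists, whose groups did not overlap. These means are a description, and no p is given for them.

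The arrays themselves differed in other respects. A list of 10 S phase genes, 9 of them with lower values at an unadjusted p under 0.05 and all 10 with an adjusted p above the threshold, stood at -1.12, 0.36 and -0.83 in the Htt siRNA arrays and at 0.15, 0.86 and 0.59 in the scramble arrays, relative to the mean of the 6. A list of 10 muscle differentiation genes, 10 of them with higher values at an unadjusted p under 0.05 and 0 at the adjusted one, stood at 1.23, 0.19 and 1.01 against -0.73, -1.23 and -0.46. A list of 10 stress response genes split the arrays otherwise, with 0.81, -1.41 and 0.93 against 1.12, -1.01 and -0.44. On the same scale every complex stayed between -0.11 and 0.11. The 3 lists were chosen with earlier results of these data known, and their part in the values of single oxidative phosphorylation genes was not tested.

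**Figure D3:**
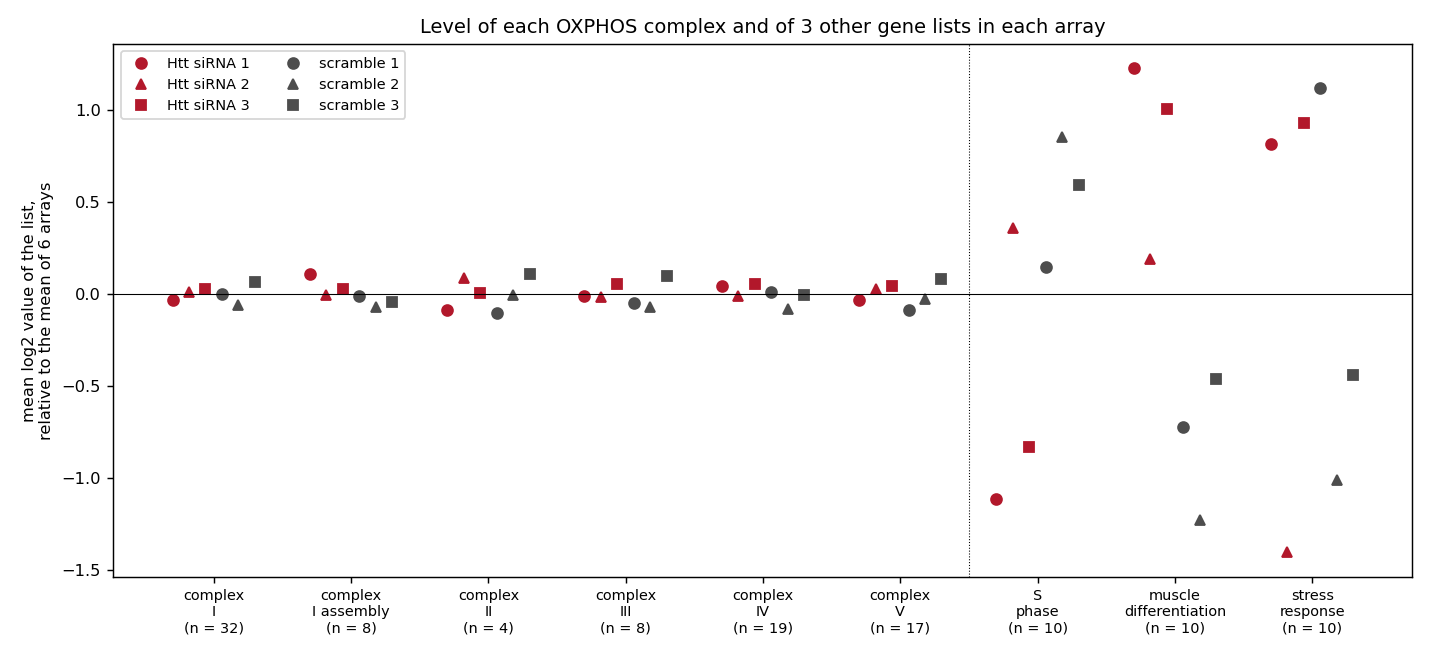
Mean log2 value of the genes of each complex and of 3 other lists in each array (vertical axis, relative to the mean of the 6 arrays; red: Htt siRNA, grey: scramble; circle, triangle and square: replicates 1, 2 and 3; n: genes). The complexes lie between -0.11 and 0.11 in every array, while the other lists spread from -1.41 to 1.23.

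Single arrays ranked differently over the 80 subunits. Scramble replicate 3 held the highest of the 6 values for 22 subunits and Htt siRNA replicate 3 for 19, while scramble replicate 2 held it for 5. The lowest value fell in Htt siRNA replicate 1 for 22 subunits, in scramble replicate 2 for 22 and in scramble replicate 3 for 5. The extremes thus lay in both groups.

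Among the 6 core subunits of complex I measured here, which as a set but not each carry the flavin and iron-sulfur centres, 0 passed either threshold. Their median log2 fold change was 0.05 (range -0.03 to 0.11). Ndufs7, which holds the last iron-sulfur cluster before ubiquinone, stood at 8.21, 8.21 and 8.15 with Htt siRNA and at 8.03, 8.06 and 8.14 with scramble. The groups stood apart by a narrow margin, with a log2 fold change of 0.11 ± 0.08 (limma adjusted p = 0.644). Ndufs1, the largest subunit of the electron input arm, stood at 6.99, 7.23 and 6.94 against 7.04, 6.88 and 7.05, with overlap and a log2 fold change of 0.07 ± 0.11. Ndufv2, an iron-sulfur subunit beside the flavin, stood at 8.37, 8.51 and 8.29 against 8.29, 8.33 and 8.41 (0.05 ± 0.09). Ndufs3, of the arm towards ubiquinone, had a log2 fold change of 0.04 ± 0.09, and for Ndufv1, which binds NADH, it was 0.05 ± 0.14. Ndufs8, another iron-sulfur subunit, was the core gene with a value below 0, at -0.03 ± 0.08.

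The 26 accessory subunits of complex I, which surround and stabilise the core, included both subunits with an unadjusted p under 0.05, and both were lower with Htt siRNA. They made up 7.69% of the 26, of which 25 lay above the median gene. The share lower was 5.14% over all genes and 9.22% over genes above the median level. Ndufb11, of the membrane arm, stood at 3.10, 3.14 and 3.14 with Htt siRNA and at 3.76, 3.80 and 3.43 with scramble. Its groups stood apart, and the log2 fold change was -0.53 ± 0.11 (95% interval -0.80 to -0.27, unadjusted p = 0.00164, limma adjusted p = 0.264). Over the 12 alternatives run, the fold change lay between -0.65 and -0.47 and the limma adjusted p between 0.0987 and 0.652. The values of Ndufb11 lay not far above the median gene of 2.95.

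Ndufab1, the mitochondrial acyl carrier protein, is both a subunit of complex I and a carrier in mitochondrial fatty acid synthesis. It stood at 4.48, 4.70 and 4.56 with Htt siRNA and at 4.87, 4.85 and 4.83 with scramble. The scramble arrays lay close together and above every Htt siRNA array, with a log2 fold change of -0.27 ± 0.09 (unadjusted p = 0.0177, limma adjusted p = 0.395). Without Htt siRNA replicate 1 it was -0.22, with an unadjusted p of 0.0619 in limma.

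Other accessory subunits had higher values with Htt siRNA. Ndufa13, also known as GRIM-19, stood at 7.01, 6.98 and 7.26 against 6.91, 6.87 and 6.92, and its log2 fold change was 0.19 ± 0.10 (limma adjusted p = 0.541). Ndufa1, a small membrane subunit, stood at 5.98, 5.93 and 5.89 against 5.78, 5.77 and 5.84 (0.14 ± 0.08). In both the groups stood apart, without passing either threshold. Ndufb9, the brightest accessory probe set, had a log2 fold change of -0.07 ± 0.09 and Ndufs5, the dimmest, 0.10 ± 0.12. A left-out probe set shared by Ndufs5 and Ndufs5-ps was brighter, at a mean of 6.03 against 2.79, with a log2 fold change of 0.09. Over the 26 accessory subunits, 12 fold changes were above 0 and 14 below, with a median of -0.0052.

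Of the 8 complex I assembly factors, which help to build the complex and do not stay in it, 5 had fold changes above 0 and 3 below, with a median of 0.0845. Ndufaf2 stood at 3.52, 3.43 and 3.55 with Htt siRNA and at 3.06, 3.45 and 3.04 with scramble. Scramble replicate 2 lay inside the Htt siRNA range, and the log2 fold change was 0.31 ± 0.13 (unadjusted p = 0.0375, limma adjusted p = 0.435). The unadjusted p in limma was above 0.05 when replicate 1 or 3 of either group was left out: 0.0851 and 0.0961 for the Htt siRNA arrays and 0.118 and 0.127 for the scramble arrays. Without Htt siRNA replicate 2 it was 0.0423. Without scramble replicate 2 it was 0.00277, with a log2 fold change of 0.45 and a limma adjusted p of 0.548. Ndufaf8 stood at 4.53, 4.25 and 4.36 against 4.17, 4.18 and 4.22, apart, with a log2 fold change of 0.19 ± 0.10 (limma adjusted p = 0.526). Ndufaf3 stood at 5.19, 4.86 and 5.29 against 4.99, 4.59 and 5.03, where the array numbered 2 was the lowest of each group (0.25 ± 0.16). Ndufaf4, the brightest of them, had a log2 fold change of 0.09 ± 0.16.

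Complex II, which also works in the citric acid cycle, showed 0 of 4 subunits past either threshold and 0 of 4 with groups apart. Sdha, the catalytic flavoprotein, stood at 8.05, 8.31 and 8.40 with Htt siRNA and at 8.29, 8.26 and 8.47 with scramble (-0.09 ± 0.12). Sdhb, the iron-sulfur subunit, stood at 7.13, 7.10 and 7.16 against 7.07, 6.92 and 7.14 (0.09 ± 0.09). The catalytic pair thus had fold changes of about the same size and opposite sign, and the groups overlapped for each. The membrane anchors Sdhc (7.28, 7.45 and 7.15 against 7.24, 7.40 and 7.30) and Sdhd (7.80, 8.10 and 7.92 against 7.59, 8.01 and 8.15) had fold changes of -0.02 ± 0.10 and 0.02 ± 0.16.

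In complex III 5 of 8 fold changes lay above 0, with a median of 0.0145, and 0 of 8 passed either threshold. Uqcrb, a small subunit near the ubiquinone site, stood at 9.39, 9.57 and 9.41 with Htt siRNA and at 9.51, 9.62 and 9.74 with scramble. The ranges overlapped, and the log2 fold change was -0.17 ± 0.10 (limma adjusted p = 0.578). Uqcrc2, a core protein, stood at 8.54, 8.54 and 8.62 against 8.46, 8.35 and 8.56 (0.11 ± 0.09), and Uqcr11, a small subunit, had a log2 fold change of 0.10 ± 0.11. The subunits that carry electrons had fold changes of 0.09 ± 0.11 for Uqcrfs1, the Rieske iron-sulfur protein, and -0.05 ± 0.09 for Cyc1, cytochrome c1. Uqcrq, a small membrane subunit, stood at 4.52, 3.85 and 4.42 against 4.59, 3.84 and 4.34 (0.01 ± 0.23). Its spread lay between array numbers and not between the groups, with the array numbered 2 the lowest in both.

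Complex IV held the widest spread among the 90 genes. Of its 19 members 12 had fold changes above 0 and 7 below, with a median of 0.04, 0 had an unadjusted p under 0.05, and 6 lay at or below the median gene. Cox6a2, the form of subunit 6a typical of heart and skeletal muscle, stood at 5.02, 2.81 and 4.59 with Htt siRNA (4.14 ± 1.17, SD, n = 3) and at 3.91, 3.24 and 2.91 with scramble (3.35 ± 0.51). Htt siRNA replicate 2 was the lowest of the 6 values and the other Htt siRNA arrays the highest, so the groups overlapped. The log2 fold change was 0.79 ± 0.54 (95% interval -0.46 to 2.03, limma adjusted p = 0.631).

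This gene rested on that array. Without Htt siRNA replicate 2 its log2 fold change was 1.45 with a limma adjusted p of 0.0465, and limma then called 2.43% of all genes, Cox6a2 being the 1 of the 90 among them. Over the 12 alternatives the fold change lay between 0.35 and 1.45 and the adjusted p between 0.0465 and 0.886. The muscle differentiation list was also lowest in Htt siRNA replicate 2 among the Htt siRNA arrays, at 0.19 against 1.23 and 1.01, and the S phase list was highest there, at 0.36 against -1.12 and -0.83. The stress response list set that array furthest apart, at -1.41 against 0.81 and 0.93. Among the scramble arrays Cox6a2 was highest in replicate 1 and lowest in replicate 3. The stress response list stood there at 1.12, -1.01 and -0.44, also highest in replicate 1 but lowest in replicate 2. The muscle differentiation list stood at -0.73, -1.23 and -0.46, highest in replicate 3, where Cox6a2 was lowest. The S phase list stood at 0.15, 0.86 and 0.59. The part of these differences in the Cox6a2 values was not tested. Cox6a1, the widely expressed form, stood at 10.57, 10.64 and 10.76 against 10.62, 10.71 and 10.68, with a log2 fold change of -0.01 ± 0.09 (95% interval -0.21 to 0.19).

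The other muscle forms of complex IV subunits did not share this spread. Cox7a1, the heart and muscle form of subunit 7a, stood at 3.15, 3.53 and 3.40 with Htt siRNA and at 3.29, 3.31 and 3.27 with scramble (0.07 ± 0.11). Its widely expressed counterpart Cox7a2 had a log2 fold change of -0.03 ± 0.12. Cox8b, the muscle form of subunit 8 in mouse, stood at 2.40, 2.13 and 2.25 against 2.23, 2.20 and 2.23 (0.04 ± 0.09), below the median gene in all 6 arrays. Cox8a, the widely expressed form, stood at 9.35, 9.27 and 9.35 against 9.26, 9.28 and 9.31 (0.04 ± 0.08), and Cox8c, the testis form, had a log2 fold change of -0.04 ± 0.09.

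Cox7a2l, a relative of subunit 7a that joins complexes III and IV into supercomplexes, had the smallest p of the complex. It stood at 4.86, 4.75 and 4.90 with Htt siRNA and at 4.67, 4.50 and 4.70 with scramble. The groups stood apart, with a log2 fold change of 0.21 ± 0.09 (unadjusted p = 0.0547, limma adjusted p = 0.469). Cox5a, a subunit on the matrix side, stood apart the other way, at 7.01, 7.10 and 7.12 against 7.19, 7.27 and 7.23. Its log2 fold change was -0.15 ± 0.08 (limma adjusted p = 0.532).

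Of the remaining isoform pairs of complex IV, each had fold changes that did not pass either threshold. Cox4i1, the common form of subunit 4, had a log2 fold change of 0.08 ± 0.10, and Cox4i2, its form known from lung and hypoxia, stood at 2.75, 3.02 and 3.01 against 2.64, 2.79 and 2.88 (0.16 ± 0.11). For subunit 6b the common Cox6b1 gave -0.16 ± 0.14 and the testis form Cox6b2 0.08 ± 0.11. Ndufa4 stood at 8.65, 8.90 and 8.71 against 8.86, 8.89 and 8.89 (-0.13 ± 0.09), and its hypoxia-induced relative Ndufa4l2 gave 0.03 ± 0.12. Cox7b gave -0.18 ± 0.16 from its brightest probe set and 0.12 ± 0.11 from its other one, which lay below the median gene, and its testis form Cox7b2 gave 0.02 ± 0.08.

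**Figure D4:**
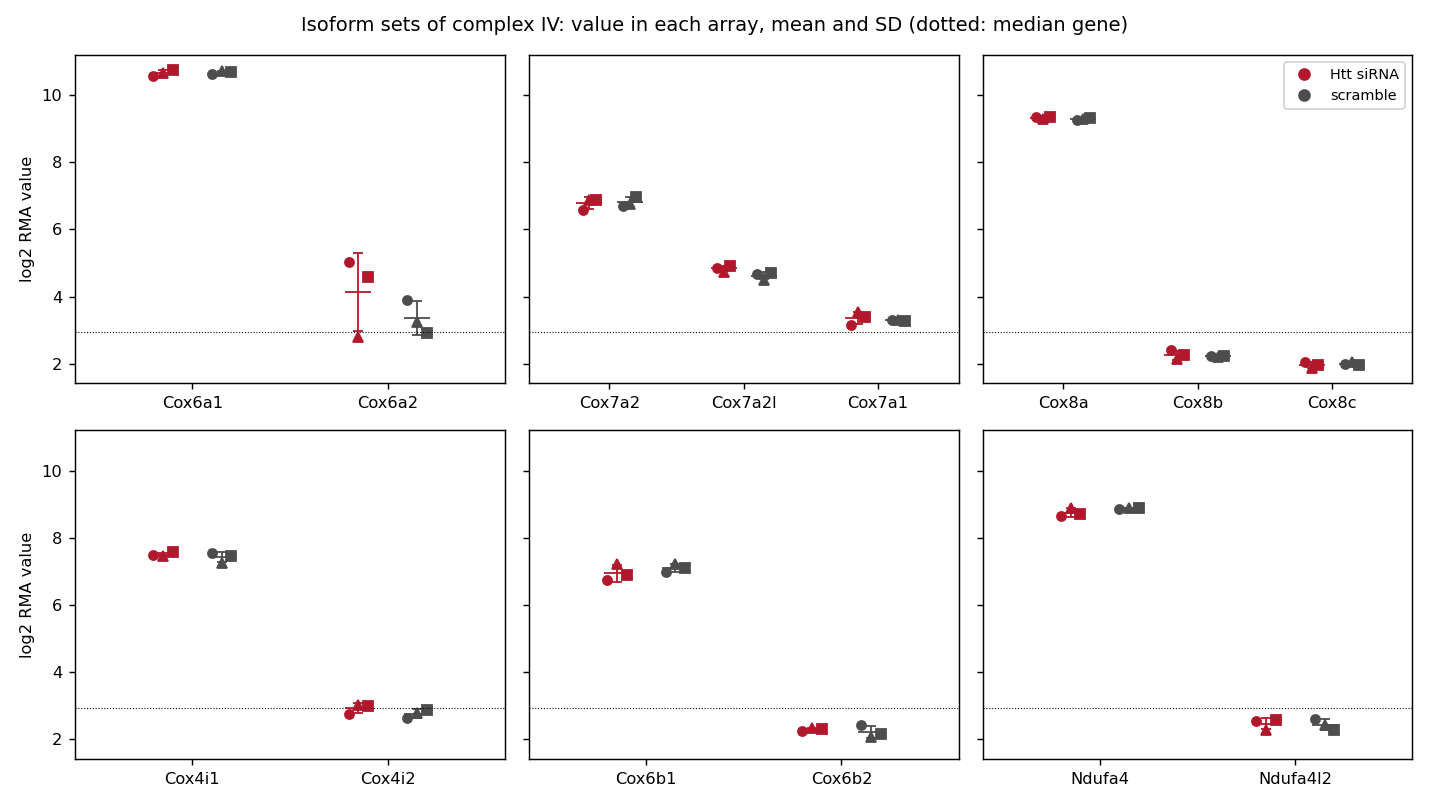
Log2 RMA value (vertical axis) of the isoforms of 6 complex IV subunits in each array (red: Htt siRNA, grey: scramble; circle, triangle and square: replicates 1, 2 and 3), with mean and SD (n = 3); the dotted line is the median gene at 2.95. Cox6a2 spreads from 2.81 to 5.02 within the Htt siRNA group, while Cox7a1 stays between 3.15 and 3.53 and Cox8b between 2.13 and 2.40.

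Of the 17 subunits of the ATP synthase 9 had fold changes above 0 and 8 below, with a median of 0.02 and a range of -0.10 to 0.19, and 0 passed either threshold. In the catalytic head, Atp5b, the beta subunit, stood at 10.91, 11.01 and 10.94 with Htt siRNA and at 11.02, 10.98 and 11.01 with scramble (-0.05 ± 0.08). In the peripheral stalk that holds the head, Atp5o stood at 3.85, 3.69 and 3.90 against 3.40, 3.56 and 3.90 (0.19 ± 0.14, limma adjusted p = 0.65). Atp5pb, subunit b of that stalk, stood at 8.11, 8.21 and 8.28 against 8.22, 8.19 and 8.46 (-0.09 ± 0.10). Ranges overlapped for all 3. Atp5l, subunit g of the membrane part, was the member of this complex whose groups stood apart, at 8.19, 8.14 and 8.18 against 8.09, 8.04 and 8.11, with a log2 fold change of 0.09 ± 0.08 (limma adjusted p = 0.728).

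Subunit c, which forms the rotating ring, is made from 3 genes with the same mature protein. Atp5g1 stood at 3.38, 2.53 and 2.80 against 2.78, 3.06 and 2.30 (0.19 ± 0.25). Atp5g2 stood at 9.93, 9.80 and 10.42 against 9.84, 9.72 and 10.31 (0.09 ± 0.20), where the array numbered 3 was the highest of each group, and its other probe set gave 0.10 ± 0.19. Atp5g3 gave -0.04 ± 0.15. Atp5h, of the peripheral stalk, gave 0.03 ± 0.09 from its brightest probe set and -0.40 ± 0.21 from a dimmer one (unadjusted p = 0.0961 in limma).

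The 2 pseudogenes lay below the median gene. Uqcrh-ps1 stood at 1.99, 1.57 and 1.76 with Htt siRNA and at 1.45, 1.33 and 1.52 with scramble, with a log2 fold change of 0.34 ± 0.12 (unadjusted p = 0.0239, limma adjusted p = 0.406). Uqcrh itself, the hinge subunit of complex III, gave 0.02 ± 0.13. Probes for a gene and its processed copies can share signal, so such pairs are uncertain.

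Fold changes were set beside the promoter motifs as a description. Genes with an NRF1 core had a median log2 fold change of 0.05 (19 genes) and those without 0.02 (53 genes), and for the ETS core the medians were 0.04 and 0.02. For the YY1 core they were -0.02 (10 genes) and 0.04 (62 genes). The differences between these medians were not tested.

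Other genes of the pathway, from fixed lists, passed the adjusted threshold in 0 cases. Among 37 assembly factors outside the Nduf family 3 had lower values at an unadjusted p under 0.05 (8.11%) and 0 higher. The median was -0.01, and 36 of the 37 lay above the median gene. Over all genes these shares were 5.14% lower and 5.72% higher, and over genes above the median level 9.22% and 5.92%. Nubpl, which delivers iron-sulfur clusters to complex I, had a log2 fold change of -0.42 ± 0.10 (limma adjusted p = 0.310). Atpaf2, an assembly factor of the ATP synthase head, gave -0.33 ± 0.09, and Sdhaf4, an assembly factor of complex II, gave -0.31 ± 0.09. All 3 had groups that stood apart. Of the 37 factors, 4 stood apart with Htt siRNA lower and 0 with it higher. Standing apart lower was found for 5.91% of all genes and 9.04% of genes above the median level. For standing apart higher these shares were 10.1% and 7.13%, and the counts among the 37 factors were not tested against them.

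Of 18 genes of electron carriers and ubiquinone synthesis 0 had an unadjusted p under 0.05, with a median of -0.07. Cycs, cytochrome c, was at 8.97 with Htt siRNA and 9.18 with scramble, a log2 fold change of -0.20 ± 0.09. Of 16 citric acid cycle genes 2 had higher values at an unadjusted p under 0.05 (12.5%) and 0 lower, with a median of -0.0048. All 16 lay above the median gene. The shares higher were 5.72% of all genes and 5.92% of genes above the median level, and those lower 5.14% and 9.22%. The 2 were Idh3b, of isocitrate dehydrogenase (0.28 ± 0.09), and Pdha1, of pyruvate dehydrogenase, which feeds the cycle (0.18 ± 0.08). Of 7 nucleotide and phosphate carriers 0 had an unadjusted p under 0.05, with a median of 0.01.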

How the data were processed

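The authors deposited log2 expression values for 41345 probe sets on 6 arrays; RMA, which corrects background, quantile-normalizes the arrays and summarises probes, is named with the affy package per the submitters' processing notes, and their versions were not given in the sources used here. Quantile normalization gives arrays one distribution, so total RNA per cell cannot be read from these values, and weak signals are compressed. The table holds no detection calls, and the number of arrays limits the precision. The platform annotation gave 1 symbol for 23521 probe sets and several for 1814, and the brightest probe set stood for each of 22180 genes. All 90 genes described were found in the RefSeq table by Entrez identifier. The genome build of the array is not given in the sources used here, so coordinates are those of RefSeq promoters.

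Differences were tested with limma 3.58.1 (lmFit and eBayes, two-sided, group as the only term, all 6 arrays) in R 4.3.3, after a test on simulated data. Tables and plots used Python 3.11.15, pandas 2.3.3 and matplotlib 3.10.9. Alternatives were a replicate block, array centring, repeated quantile normalization, a filter on dim genes, array weights, the mean of probe sets and leaving out each array in turn. Genes were named by a rule: Htt, the 3 smallest p and the brightest and dimmest member per class, all of complex II, and the isoform sets; any further gene was picked with its values in view. The members and lists were chosen with earlier results of these data known.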

Additional observations from a re-analysis of the deposited data

How the results depend on the processing

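Of 543 alternative values for the 46 named oxidative phosphorylation genes, 542 stayed on their side of the adjusted threshold, and the exception was Cox6a2 without Htt siRNA replicate 2. Htt passed the threshold with the replicate block (-1.10, limma adjusted p = 0.0128), centred arrays (-1.16), repeated quantile normalization (-1.04), genes above the median level (-1.10) and array weights (-1.11); leaving out 1 array gave -1.16 to -1.06, and it passed without Htt siRNA replicate 2 (-1.07, adjusted p = 0.00778). Replicate numbers were shared by the groups, and the deviations of same-numbered arrays correlated with r = 0.35, 0.36 and 0.01 across genes. Htt siRNA replicates 1 and 2 each correlated best with the scramble array of the same number. Htt siRNA replicate 3 correlated best with scramble replicate 1 (0.22). The labels state no pairing, and whether same-numbered arrays were handled together was not tested. The replicate block called 57 genes lower and 41 higher over all genes and 0 of the 90. Limma called 1 of the 90 without Htt siRNA replicate 2 and 0 without each other array.

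Centring the arrays moved the median of all genes from 0.03 to -0.03, that of the 90 genes to -0.0333, of complex I to -0.0315, of complex IV to -0.0271 and of the complex I assembly factors to 0.022; fold changes above and below 0 went from 52 and 38 to 37 and 53. Without scramble replicate 3 they were 62 and 28. Repeated quantile normalization put the assembly factor median at 0.14, and leaving out 1 array at 0.0275 to 0.16. Of the 90 genes, those higher at an unadjusted p under 0.05 numbered 0 with centring (2.8% of all genes), 5 with repeated quantile normalization (5.02%), 0 among genes above the median level (4.66%), 4 with array weights (6.85%) and 3 with the replicate block (7.2%). Leaving out 1 array gave 0 without Htt siRNA replicate 1 (4.59%) or 3 (4.26%) and up to 6 without Htt siRNA replicate 2 (7.8%). Those lower numbered 3 with centring (8.53%), 1 with repeated quantile normalization (5.03%), and on leaving out 1 array between 1 (3.1%, Htt siRNA replicate 1 left out) and 3 (7.75%, Htt siRNA replicate 2 left out). The cause of these shifts was not tested. Dim probe sets limit what can be said of the 11 genes at or below the median gene.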
